A study of Mus musculus with 6 samples.

Results

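The transcripts of the NRF2 antioxidant response and of the AhR repressor were followed in H22 tumours with and without luteolin. These were 10 genes, chosen by symbol, out of 21720 gene symbols in the deposited table. They comprised Nfe2l2 and Keap1, which encode NRF2 and its inhibitor, 7 target genes of NRF2 (Hmox1, Nqo1, Slc7a11, Gclc, Gclm, Txnrd1 and Srxn1) and Ahrr. H22 is a mouse hepatocellular carcinoma line, and the tumours were grown under the skin of female BALB/c mice aged 6 to 8 weeks. The control mice were gavaged daily for 21 days with 0.2 mL of 0.5% carboxymethyl cellulose sodium, and the luteolin mice with 200 mg/kg luteolin, a plant flavonoid, on the same schedule, once tumours had reached about 50 mm3. Genotype was labelled WT in both groups. Each group gave 3 RNA libraries of whole tumour tissue, so that every value below mixes the H22 cells with the cells of the host. The labels do not say that each library came from a separate mouse, and p values measure the spread between these libraries.

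NRF2 is a transcription factor that is held in the cytoplasm by KEAP1, an adaptor which hands it to a ubiquitin ligase for breakdown. Oxidants and electrophiles modify cysteines of KEAP1, after which NRF2 enters the nucleus, pairs with small MAF proteins and binds antioxidant response elements (ARE) in its target genes. This control acts mainly on the protein, so the Nfe2l2 transcript is not itself a measure of NRF2 activity. The aryl hydrocarbon receptor (AhR), which binds planar aromatic molecules including many flavonoids, acts through xenobiotic response elements (XRE), and AHRR competes with it for its partner ARNT and for these elements. Flavonoids are known to act on both pathways in liver cells.

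Total counts ranged from 61081637 to 80442954 per library, and levels are given in CPM, the usual depth-scaled count unit, computed on TMM-normalized library totals. Luteolin replicate 2 stood apart, with a summed level of 11 keratinocyte markers of 9003 CPM, against 392 and 21.4 CPM in luteolin replicates 1 and 3 and 14.4 to 18.6 CPM in the control libraries. Krt14, Krt5 and Krt1 were listed at 0 in every control library. Of the markers of the H22 line, Afp, a hepatoma marker, was present at 32.7 to 66.7 CPM, while Hnf4a, the hepatocyte transcription factor, did not exceed 0.33 CPM in any library and Alb lay between 0.87 and 133 CPM. Ttr, another hepatocyte gene, did not exceed 0.39 CPM.

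All 10 genes passed the filter on low counts and were compared with the whole table of 14963 tested genes. At the study's threshold (unadjusted p under 0.05 with an over 2-fold change), 2 of the 10 were up-regulated in edgeR, Slc7a11 and Hmox1. Of all genes tested, 11.3% were up-regulated. Without luteolin replicate 2 the count was again 2, against 7.52% of all genes. None of the 10 was down-regulated at that threshold, where 1.52% of all genes were, and the count was also 0 in DESeq2 and in limma's voom. DESeq2, the tool of the study, and voom each called Ahrr up-regulated as well. This made 3 of the 10, where 11.5% and 11.7% of all genes were up-regulated. Without the fold limit, edgeR gave an unadjusted p under 0.05 to the same pair higher and to Srxn1 lower, where 14% of all genes were higher and 6.44% lower. At an adjusted p under 0.05, 1 gene remained, Hmox1, against 1.34% of all genes higher and 0.187% lower. Every luteolin library lay above every control library for 3 genes (Hmox1, Slc7a11 and Ahrr) and below for 1 (Srxn1), and the groups overlapped for the other 6. Such a separation was seen for 15.9% of all genes tested above and for 12.8% below the controls. The median log2 fold change was 0.05 over the 10 genes and -0.01 over all genes tested.

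**Figure D1:**
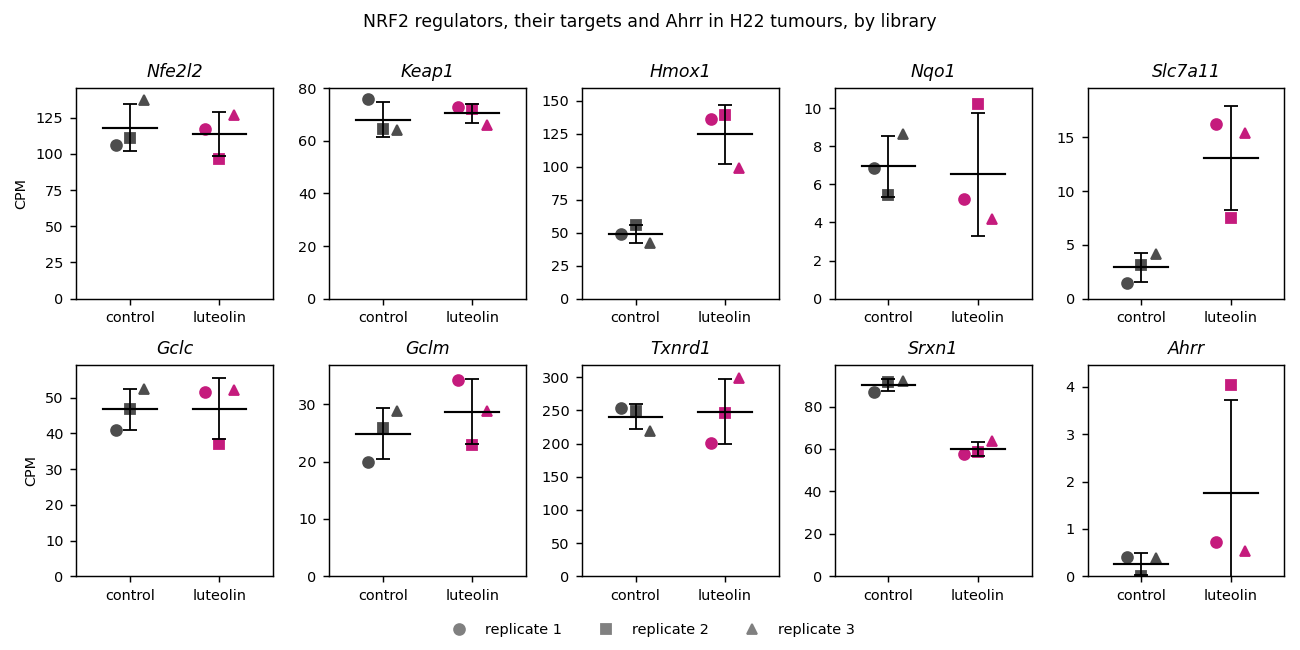
Level of each of the 10 genes in CPM (vertical axes, each from 0) in the 3 control and 3 luteolin libraries. Symbols mark the replicate, horizontal lines the mean and bars 1 SD (cut at 0 for Ahrr). Hmox1 and Slc7a11 are higher and Srxn1 is lower in all luteolin libraries, and the mean of Ahrr rests on luteolin replicate 2 at 4.03 CPM.

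To see how the promoters of these genes compare, the RefSeq windows from 250 bases before to 50 bases after each transcription start (mouse build GRCm38.p6) were searched on both strands for the ARE core TGACNNNGC and the XRE core GCGTG. A window was found by symbol for 8 of the 10 genes, all but Hmox1 and Gclc. The ARE core lay in 12.4% of all 32851 windows and the XRE core in 32.4%. Among the 8 genes, Nfe2l2, Gclm, Txnrd1 and Srxn1 held an ARE core, and Keap1, Gclm, Txnrd1, Srxn1 and Ahrr an XRE core. The longer ARE that ends in a further A lay in 3.04% of all windows and, of these genes, in Txnrd1. Such matches are descriptions of sequence and not binding sites, and enhancers outside these windows were not searched. Forms of the ARE core with G in place of the C were not searched either.

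The regulators themselves differed little between the groups. Nfe2l2 had 106, 111 and 137 CPM in control replicates 1, 2 and 3 and 117, 96.7 and 127 CPM in luteolin replicates 1, 2 and 3. Its groups overlapped, with a log2 fold change of -0.06 (standard error 0.17) and a 95% interval of the fold from 0.72 to 1.27. Keap1 had 75.7, 64.4 and 63.9 CPM in the control libraries and 72.8, 72.1 and 66.2 CPM in the luteolin libraries. Its values also overlapped, with a log2 fold change of 0.05 and a fold between 0.82 and 1.31. A 2-fold change of either transcript thus lay outside the interval. The log2 ratio of Keap1 to Nfe2l2 within a library ranged from -1.10 to -0.49 in the control group and from -0.94 to -0.42 in the luteolin group, with a difference of 0.11 (exact two-sided permutation test, p = 0.7). The sign of this difference turned without control replicate 3 (-0.04) and without luteolin replicate 2 (-0.02).

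Hmox1, which encodes the haem oxygenase that opens the haem ring to release iron, carbon monoxide and biliverdin, was the gene of the group with the smallest p. It had 49.1, 55.9 and 42.3 CPM in control replicates 1, 2 and 3 and 136, 139 and 98.9 CPM in luteolin replicates 1, 2 and 3. The lowest luteolin library was thus well above the highest control library, and the spread within each group was smaller than the distance between them. The means were 49.1 ± 6.76 and 125 ± 22.5 CPM (SD, n = 3 each), which gave a log2 fold change of 1.35 (standard error 0.20) or 2.54-fold, with a 95% interval from 1.84 to 3.50. The adjusted p was 0.0366 in the quasi-likelihood test of edgeR after Benjamini-Hochberg adjustment, and Hmox1 ranked 98 of 14963 genes by p. Its log2 fold change stayed between 1.25 and 1.44 when any 1 library was dropped, and between 1.23 and 1.39 with other tools and normalizations. With 1 library left out, the adjusted p was over 0.05 without control replicate 1 (0.169), control replicate 2 (0.207), control replicate 3 (0.156) or luteolin replicate 1 (0.133) and ranged from 1.96e-07 to 0.207 over all alternatives. Each of these 4 settings left 0 genes of the whole table at an adjusted p under 0.05, while 1907 to 2462 had an unadjusted p under 0.05. In whole tumours, more cells that express Hmox1 and more Hmox1 RNA per cell cannot be told apart.

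Macrophages take up red cells and express Hmox1, and the summed level of their markers was also higher in every luteolin library. Within the groups the order differed. Control replicate 2 had the highest Hmox1 level and the lowest macrophage sum of its group (2038 CPM). Luteolin replicate 3 had the lowest Hmox1 level of its group and a macrophage sum of 3497 CPM, above the 2715 CPM of luteolin replicate 1. The summed level of 12 macrophage markers ranged from 2038 to 2311 CPM in the control group and from 2715 to 3806 CPM in the luteolin group, and 3 of the 12 were up-regulated at the study's threshold. The most abundant were Lyz2, C1qa and C1qc, with log2 fold changes of 0.23, 0.80 and 0.91, none of them past that threshold. Cd68 was up-regulated with a log2 fold change of 1.16. The median log2 fold change of the macrophage list was 0.82, against 1.35 for Hmox1. The T and NK cell, neutrophil and fibroblast lists had higher medians (2.23, 2.17 and 1.22). The endothelial and proliferation lists had lower ones (0.75 and -0.32). The part of macrophages in the Hmox1 level was not tested.

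Slc7a11, the light chain of the cystine and glutamate antiporter that brings in cystine for glutathione synthesis, had the largest fold change of the genes past the threshold. It was counted 105, 201 and 266 times in control replicates 1, 2 and 3 and 995, 631 and 988 times in luteolin replicates 1, 2 and 3. On the CPM scale these were 1.5, 3.10 and 4.12 against 16.2, 7.55 and 15.5. Luteolin replicate 2 was the lowest of its group and still above every control library. The means were 2.91 ± 1.32 and 13.1 ± 4.81 CPM (SD, n = 3 each), which gave a log2 fold change of 2.17 (standard error 0.49) or 4.49-fold, with a 95% interval from 2.02 to 10.0. The adjusted p was 0.0831 in edgeR's quasi-likelihood test, short of 0.05. It was up-regulated at the study's threshold in all 15 alternatives, with log2 fold changes from 1.85 to 2.50 and adjusted p values from 0.000349 to 0.327. Its promoter window is shown because it was past the threshold, and neither core was found in these letters, read 5′ to 3′ up to the base before the transcription start.
Slc7a11 (chr3:50443614-50443863, minus strand): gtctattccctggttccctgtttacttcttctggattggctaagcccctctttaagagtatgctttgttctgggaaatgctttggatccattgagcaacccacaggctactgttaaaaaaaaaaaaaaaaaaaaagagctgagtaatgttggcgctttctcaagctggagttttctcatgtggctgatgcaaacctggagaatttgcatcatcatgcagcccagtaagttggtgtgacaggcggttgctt

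**Figure D2:**
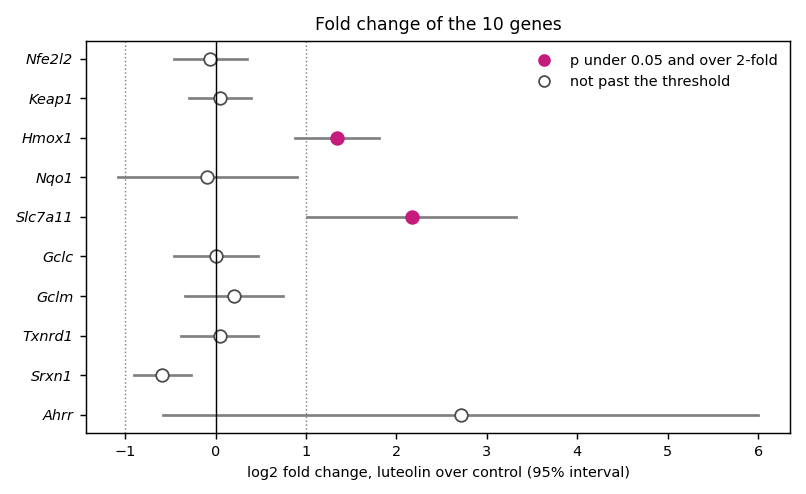
Log2 fold change of luteolin over control (horizontal axis) for each of the 10 genes, from edgeR, with 95% intervals as grey lines and dotted lines at a 2-fold change. Filled points passed the study's threshold. Hmox1 (1.35) and Slc7a11 (2.17) are the filled points. Srxn1 (-0.59) has an interval from -0.90 to -0.27, all of it below 0 and short of a 2-fold decrease. The interval of Ahrr runs from -0.58 to 6.0.

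Both genes of the first step of glutathione synthesis stayed short of the threshold. Gclc encodes the catalytic subunit and Gclm the modifier subunit of glutamate-cysteine ligase, the rate-limiting enzyme of glutathione synthesis. Gclc had 40.9, 46.8 and 52.4 CPM in the control libraries and 51.5, 37.1 and 52.0 CPM in the luteolin libraries. The values interleaved, with a log2 fold change of 0.01 and a 95% interval of the fold from 0.73 to 1.38. Gclm had 20.0, 25.9 and 28.7 CPM in the control libraries and 34.3, 22.9 and 28.9 CPM in the luteolin libraries. Its groups overlapped as well, with a log2 fold change of 0.21 and a fold between 0.79 and 1.68. Within a library the log2 ratio of Gclc to Gclm was 1.03, 0.85 and 0.86 in the control group and 0.59, 0.70 and 0.85 in the luteolin group. The ratio was lower in every luteolin library, by a mean of -0.21 (exact two-sided permutation test, p = 0.1, the smallest that 3 libraries against 3 allow), although the highest luteolin value and the lowest control value nearly touched.

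Txnrd1, the cytosolic thioredoxin reductase, was the most abundant of the 10 genes in CPM. It had 253, 250 and 219 CPM in the control libraries and 201, 246 and 298 CPM in the luteolin libraries. The luteolin libraries lay on both sides of the controls, with a log2 fold change of 0.05 and a 95% interval of the fold from 0.77 to 1.39. Gclm and Txnrd1 are shown because their windows hold an ARE core while the transcripts did not pass the threshold. Capitals mark the ARE core, GCACCGTCA in Gclm and GCTTTGTCA in Txnrd1, both on the strand opposite to the gene, and the XRE core as GCGTG or its reverse complement CACGC. The window of Txnrd1 is the middle one of 3, and the other windows of this gene held no ARE core.
Gclm (chr3:122245307-122245556, plus strand): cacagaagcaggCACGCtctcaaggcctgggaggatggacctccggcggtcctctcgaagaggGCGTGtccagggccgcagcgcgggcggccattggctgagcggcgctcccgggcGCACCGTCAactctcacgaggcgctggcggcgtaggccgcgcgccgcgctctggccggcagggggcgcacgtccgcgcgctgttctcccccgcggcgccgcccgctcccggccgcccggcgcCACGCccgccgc
Txnrd1 (chr10:82858956-82859205, plus strand): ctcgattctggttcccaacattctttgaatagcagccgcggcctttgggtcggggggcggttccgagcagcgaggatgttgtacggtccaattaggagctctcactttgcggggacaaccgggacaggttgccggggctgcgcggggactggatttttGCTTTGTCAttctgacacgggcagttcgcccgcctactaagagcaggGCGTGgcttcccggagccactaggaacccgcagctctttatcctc

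Srxn1 was lower in every luteolin library. It encodes sulfiredoxin, which returns over-oxidized peroxiredoxins to the active form and is a well-known NRF2 target. It had 86.9, 91.6 and 91.9 CPM in control replicates 1, 2 and 3 and 57.6, 58.5 and 63.9 CPM in luteolin replicates 1, 2 and 3. The values were tight, with a coefficient of variation of 3.16% in the control group, where the median over all tested genes was 20.6%, and every luteolin library lay below every control library. The means were 90.1 ± 2.85 and 60.0 ± 3.39 CPM (SD, n = 3 each), which gave a log2 fold change of -0.59 (standard error 0.13) or a fold of 0.67, with a 95% interval from 0.54 to 0.83. The adjusted p was 0.0831 in edgeR's quasi-likelihood test, the same value as for Slc7a11, and the estimate did not reach the 2-fold limit. Over the alternatives the log2 fold change stayed between -0.68 and -0.54 and the adjusted p ranged from 0.00141 to 0.345. The difference was in the direction opposite to that of Hmox1 and Slc7a11. In the sequence below, capitals mark an XRE core on the opposite strand. The ARE core of this window, GCTAGGTCA on the opposite strand, lies 29 to 37 bases after the transcription start and is not in the stretch shown. The stretch also holds the letters tgagtcagc, which have G in place of the C of the core and were not searched for.
Srxn1 (chr2:152105274-152105523, plus strand): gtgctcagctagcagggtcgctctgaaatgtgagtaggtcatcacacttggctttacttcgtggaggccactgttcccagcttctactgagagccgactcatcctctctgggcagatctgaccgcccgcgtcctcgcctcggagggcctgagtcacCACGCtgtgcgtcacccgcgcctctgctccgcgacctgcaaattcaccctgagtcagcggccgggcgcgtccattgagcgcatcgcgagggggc

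Nqo1 encodes the quinone reductase most often used as a readout of NRF2 activity. It had 6.84, 5.42 and 8.62 CPM in the control libraries and 5.21, 10.2 and 4.16 CPM in the luteolin libraries. Luteolin replicate 2, the library with the keratinocyte markers, was the highest of all libraries and the other two were the lowest of all. The log2 fold change was -0.09 (standard error 0.42), with a wide 95% interval of the fold from 0.47 to 1.86. Without luteolin replicate 2 it was -0.55, again not past the threshold, and without luteolin replicate 1 or 3 or control replicate 3 the sign turned, with values of 0.04, 0.09 and 0.09. With this spread, a lower or a higher level of Nqo1 within that interval was not detectable.

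Ahrr was near the limit of detection outside a single library. It was counted 29, 0 and 25 times in control replicates 1, 2 and 3 and 44, 337 and 34 times in luteolin replicates 1, 2 and 3. A count of 0 would allow up to 3 counts if 1 unit were 1 read, for counting error only, but many low values of the table are multiples of 4 and the limit may be higher. On the CPM scale these were 0.415, 0 and 0.388 against 0.718, 4.03 and 0.532. Every luteolin library lay above every control library, but luteolin replicates 1 and 3 only narrowly so. The log2 fold change was 2.71 (standard error 1.39), with a 95% interval from -0.58 to 6.0 and an adjusted p of 0.331 in edgeR's quasi-likelihood test. Without luteolin replicate 2 it was 1.23, with an unadjusted p of 0.395 in the same edgeR test. DESeq2 and limma's voom placed Ahrr past the study's threshold, with log2 fold changes of 2.68 and 5.33 and adjusted p values of 0.211 and 0.0239, and the adjusted p ranged from 0.0239 to 0.731 over all alternatives. Ahrr was removed by the filter when at least 10 counts in every library were asked for and when the values were divided by 4.

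The highest Ahrr level was in the library with the most keratinocyte RNA, and the Langerhans cell gene Cd207 was highest there too. Cd207 had 10.2 CPM in luteolin replicate 2 and at most 0.69 CPM in any other library. The summed level of the whole dendritic and Langerhans cell list was 195, 288 and 290 CPM in luteolin replicates 1, 2 and 3, and so was not highest in luteolin replicate 2, nor was its most abundant gene, Itgax. The part of skin cells in the Ahrr level was not tested. The 3 XRE cores in the promoter window of Ahrr are in capitals below, all on the strand of the gene, where 32.4% of all windows hold at least 1.
Ahrr (chr13:74292332-74292581, minus strand): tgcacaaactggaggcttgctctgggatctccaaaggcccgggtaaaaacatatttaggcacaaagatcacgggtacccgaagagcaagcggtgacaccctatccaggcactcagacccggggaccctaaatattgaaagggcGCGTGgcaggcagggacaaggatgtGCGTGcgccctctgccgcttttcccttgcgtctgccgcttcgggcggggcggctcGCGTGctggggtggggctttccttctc

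Ahr itself had 11.8, 11.8 and 11.0 CPM in the control libraries and 10.9, 27.0 and 13.8 CPM in the luteolin libraries, with its highest level also in luteolin replicate 2. Its log2 fold change was 0.58 (standard error 0.36) and its groups overlapped. The log2 ratio of Ahrr to Ahr (prior count 2) was -4.74, -8.65 and -4.72 in the control group and -3.87, -2.74 and -4.63 in the luteolin group, a difference of 2.29 (exact two-sided permutation test, p = 0.1, the smallest possible). It was 0.98 without control replicate 2, whose Ahrr count was 0. Cyp1a1, the classic AhR target, did not pass the filter on low counts: it was listed at 0 in all control libraries and in luteolin replicate 3, with 0.59 CPM in luteolin replicate 1 and 11.1 CPM in luteolin replicate 2. Aldh3a1 followed the same pattern, with 32.4 CPM in luteolin replicate 2 and at most 0.33 CPM elsewhere.

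The AhR pathway list holds the receptor complex, its targets and enzymes that make its ligands. Of its 18 tested genes, 6 were up-regulated and 0 down-regulated, where 11.3% and 1.52% of all genes tested were. The list had a median log2 fold change of 0.38. The up-regulated count was 3 without luteolin replicate 2, control replicate 1 or control replicate 2. The shares of all genes up-regulated in these settings were 7.52%, 8.58% and 8.38%. Serpinb2, a plasminogen activator inhibitor, rose by 5.45 on the log2 scale, with means of 0.97 ± 0.28 and 42.4 ± 36.3 CPM (SD, n = 3 each) and an adjusted p of 0.0331 in edgeR's test. Fos (1.75), Lpcat2 (1.11), a lysophospholipid acyltransferase, and Cyp1b1 (1.84), a cytochrome P450 induced by AhR, were also up-regulated, by the log2 fold changes given. Cyp1b1 had 2.93, 4.08 and 6.90 CPM in the control libraries and 15.1, 28.3 and 6.31 CPM in the luteolin libraries, so that luteolin replicate 3 lay within the control range. The most abundant members, the receptor chaperones Hsp90ab1 and Hsp90aa1 and the kinase Src, did not pass the threshold, with log2 fold changes of -0.38, -0.73 and -0.02.

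Beyond the 7 targets above, a list of 36 other NRF2 targets was examined, of which 34 were tested. Of these, 6 were up-regulated, 2 were down-regulated and 26 did neither, with a median log2 fold change of 0.17. Over all genes tested, 11.3% were up-regulated and 1.52% down-regulated, which is the background for each pathway list. With 1 library left out, the up-regulated share of all genes ranged from 7.52% to 13.6%. The list held 3 up-regulated genes without control replicate 3 or luteolin replicate 2, where 9.57% and 7.52% of all genes were up-regulated. The glutathione transferases moved in both directions. Gsta4, which conjugates lipid aldehydes, had 43.3, 34.5 and 34.5 CPM in the control libraries and 12, 11.5 and 13.8 CPM in the luteolin libraries. It fell by 1.59 on the log2 scale with an adjusted p of 0.0331 in edgeR's test, and the groups were far apart. Gsta1 fell by 2.75 on the log2 scale from a low level (means 4.88 ± 0.60 and 0.72 ± 0.46 CPM, SD, n = 3 each) and shares sequence with near copies, so its count is uncertain. Mgst1, a membrane glutathione transferase, rose by 2.34 and Gstm1 by 2.40 on the log2 scale, the latter again 1 of several similar genes.

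The ferritin genes, which store the iron that haem oxygenase frees, were the most abundant of the list. Fth1 had 568, 401 and 320 CPM in the control libraries and 725, 1281 and 649 CPM in the luteolin libraries, up-regulated by 1.04 on the log2 scale with an adjusted p of 0.150 in edgeR's test. Ftl1 had 1084, 891 and 614 CPM against 1462, 1631 and 1325 CPM, a log2 fold change of 0.77 below the fold limit. For both, the lowest luteolin library exceeded the highest control library, and both have processed copies in the genome that can share reads. Prdx1, a peroxiredoxin that sulfiredoxin repairs, ranged from 54.4 to 600 CPM within the control group alone and had a log2 fold change of -0.04 (standard error 0.75). The remaining up-regulated genes were Cbr3 (2.87), Cbr1 (1.64) and Blvrb (1.09), named after their values had been seen, which encode carbonyl reductases and a biliverdin reductase. Each was highest in luteolin replicate 2, at 16.1, 9.72 and 37.4 CPM. The next highest library was luteolin replicate 1, at 3.30, 3.20 and 19.2 CPM.

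**Figure D3:**
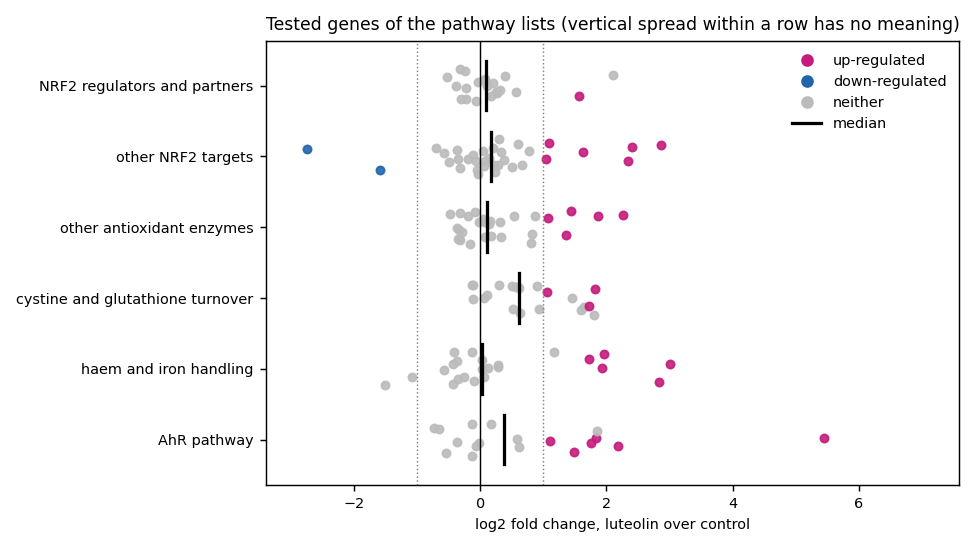
Log2 fold change of luteolin over control (horizontal axis) for every tested gene of 6 pathway lists (rows), coloured by the study's threshold, with the median of each list as a black bar and dotted lines at a 2-fold change. The medians run from 0.02 for haem and iron handling to 0.61 for cystine and glutathione turnover, and the 2 down-regulated genes, Gsta1 and Gsta4, are in the row of other NRF2 targets.

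The regulators and partners of NRF2 were examined next. Of 20 tested regulators and partners, 1 was up-regulated (Rxra, a nuclear receptor partner, 1.57) and 0 were down-regulated, with a median log2 fold change of 0.09. Rxra was at 80 CPM in luteolin replicate 2 and at 24.0 and 20.8 CPM in luteolin replicates 1 and 3, and 0 genes of the list were called without luteolin replicate 2, control replicate 2 or control replicate 3 and 2 without control replicate 1. The most abundant were Mafg, a small MAF partner of NRF2, Sqstm1, an autophagy receptor that binds KEAP1, and Nfe2l1, a relative of NRF2. Their log2 fold changes of -0.23, 0.20 and -0.32 did not pass the threshold.

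The genes around cystine uptake had the highest median of the 6 pathway lists, while several cell marker lists had higher ones, among them the macrophage list at 0.82. Of 21 tested genes of cystine and glutathione turnover, 3 were up-regulated and 0 were down-regulated, with a median log2 fold change of 0.61. Over all genes tested, 11.3% were up-regulated and 1.52% down-regulated. In every luteolin library 7 of the 21 lay above every control library, as did 15.9% of all genes tested. The up-regulated count was 6, 5 and 5 when luteolin replicates 1, 2 and 3 were left out in turn. It was 2 without control replicate 1, without control replicate 3, with the replicate block or with the offset for GC content and length. In DESeq2 and voom it was 4. Anpep, a membrane aminopeptidase, had 47.4, 47.9 and 51.8 CPM in the control libraries and 145, 202 and 140 CPM in the luteolin libraries, with a log2 fold change of 1.73 and an adjusted p of 0.0309 in edgeR's test. Atf3, a stress-induced transcription factor, had a log2 fold change of 1.06 with an adjusted p of 0.0505 in edgeR's test, and Ggt5, which cleaves glutathione conjugates, a change of 1.82. Ggt5 had 7.48, 15.1 and 3.27 CPM in luteolin replicates 1, 2 and 3 and at most 3.23 CPM in the control libraries. Slc3a2, the heavy chain that carries Slc7a11 to the membrane, had 326, 322 and 253 CPM in the control libraries and 407, 377 and 491 CPM in the luteolin libraries. Its log2 fold change of 0.50 was smaller than the 2.17 of its partner. Atf4, the amino acid stress factor that also drives Slc7a11, had a log2 fold change of 0.60 and Slc7a5 of 0.52, neither past the fold limit.

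Among the genes of haem and iron handling, 5 of 23 tested genes were up-regulated and 0 were down-regulated, with a median log2 fold change of 0.02. The up-regulated count was 2 without control replicate 1 or control replicate 2. It was 3 without luteolin replicate 1 or luteolin replicate 2 or with the replicate block. Slc11a1, a phagosomal iron transporter of macrophages, had 18.5, 17.6 and 15.6 CPM in the control libraries and 51.7, 104 and 45.8 CPM in the luteolin libraries. Its log2 fold change was 1.96, with an adjusted p of 0.0470 in edgeR's test. Hpx, which encodes the haem carrier haemopexin, rose by 3.01 on the log2 scale, Cd163, the haemoglobin receptor of macrophages, by 1.72, the iron exporter Slc40a1 by 1.93 and Hp, which encodes haptoglobin, by 2.83. Hpx, Hp and Slc40a1 were highest in luteolin replicate 2, and Cd163 in luteolin replicate 1, while luteolin replicate 3 lay within the control range for Hp and Cd163. Lrp1, Tfrc and Aco1, at the highest levels here, had log2 fold changes of 0.28, -1.52 and -0.44, none past the threshold. The down-regulated count of 0 was 1 or 2 in some other settings. It was 2 in DESeq2, in voom and with the offset for GC content and length. It was 1 with RLE normalization, at least 10 counts in every library, the replicate block or values divided by 4. Without control replicate 1 or without luteolin replicate 3 it was also 1. The summed level of the erythroid markers was 27.9 to 37.5 CPM in the control group and 9.25 to 24.9 CPM in the luteolin group.

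Other antioxidant enzymes, which are not classic NRF2 targets, formed a list of their own. Of 28 tested, 5 were up-regulated, 0 were down-regulated and the median log2 fold change was 0.11. The up-regulated genes were of low to moderate level: Sod3, the extracellular superoxide dismutase (2.26), Msrb2 (1.86), Gpx7 (1.44), Cat, which encodes catalase (1.36), and Msra (1.07). The count was 1 without luteolin replicate 2 and 3 without luteolin replicate 1. It was 2 with any 1 control replicate left out and with the replicate block. The most abundant genes, Gpx1, Prdx2 and Prdx5, had log2 fold changes of 0.08, -0.37 and 0.13 and did not pass the threshold.

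Levels were also compared between genes per base of annotated exon. Counts were divided by exon length (GENCODE M21), and these rates were scaled to the same total in every library, without TMM factors (TPM). The values are thus not the CPM given above divided by length. On this scale Txnrd1 (128), Srxn1 (121), Nfe2l2 (118) and Hmox1 (106) led the control group, and each neighbouring pair overlapped between libraries. Keap1 (54.8) and Gclc (46.9) followed and overlapped, as did Nqo1 (17.0) and Gclm (14.9), and Slc7a11 (0.79) and Ahrr (0.11) were the lowest. In the luteolin group Hmox1 was at the top with 261, and its lowest library (213) was above the highest library of Txnrd1 (159). Srxn1 stood at 78.1, with its highest library (85.4) below the lowest of Nfe2l2 (89.4). Gclm (16.8) and Nqo1 (15.2) were in the reverse order of the control group and overlapped in both groups. Slc7a11 rose to 3.48 on this scale and stayed below both.

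Because cell types differ in these genes, markers of 14 cell types and states were summed per library. The sum lay above every control library in every luteolin library for 9 of the 14 and below for 2, and it was highest in luteolin replicate 2 for 9. For the counts that follow, 11.3% of all genes tested were up-regulated and 1.52% down-regulated. The immune lists had 5 of 8 tested neutrophil genes up-regulated (led by Csf3r, Mmp9 and S100a9), 7 of 9 dendritic and Langerhans cell genes (Itgax, Zbtb46 and Ccr7), 10 of 10 T and NK cell genes (Gzmb, Cd4 and Cd3g) and 4 of 7 B and plasma cell genes (Jchain, Mzb1 and Cd79b). In the stroma, 7 of 10 fibroblast genes (Col3a1, Col1a1 and Col1a2) and 4 of 10 endothelial genes (Pecam1, Cdh5 and Eng) were up-regulated. In the skin lists, 8 of 9 keratinocyte genes (Krt14, Krt10 and Krt5) and 3 of 6 sebaceous gland and hair follicle genes (Krt79, Scd3 and Elovl3) were up-regulated. The adipocyte list (Fabp4, Cfd and Cidec) had 0 of 7 and the proliferation list (Top2a, Mki67 and Cdk1) 0 of 11. The muscle list (Myh4, Acta1 and Ttn) had 0 of 10 up-regulated and 1 down-regulated, the erythroid list (Hbb-bs, Hbb-bt and Hba-a1) 0 of 6 and 1, and the hepatocyte and hepatoma list (Trf, Afp and Alb) 1 of 13. The genes in parentheses are the 3 with the highest mean, whether or not they passed. The hepatocyte and hepatoma sum was 368 to 436 CPM in the control group and 212 to 365 CPM in the luteolin group, although the median log2 fold change over its genes was 1.64. The part of these cell types in the levels of Hmox1, Slc7a11, Srxn1 and Ahrr was not tested.

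**Figure D4:**
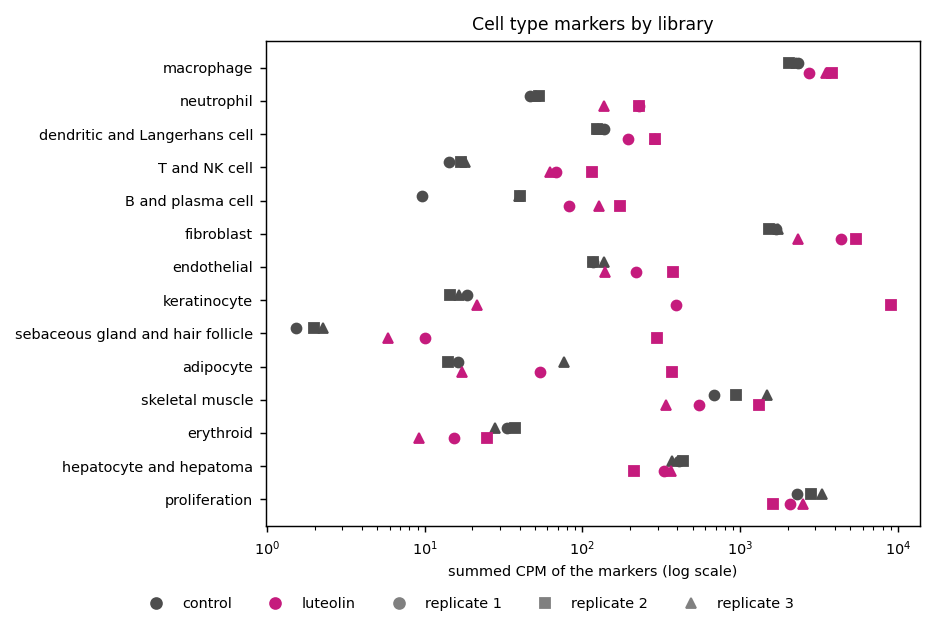
Summed CPM of the markers of 14 cell types and states (horizontal axis, log scale) in each control and luteolin library, with symbols for the replicate. The keratinocyte sum spreads from 21.4 to 9003 CPM within the luteolin group, while the macrophage sum separates the groups, from at most 2311 to at least 2715 CPM.

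**Figure D5:**
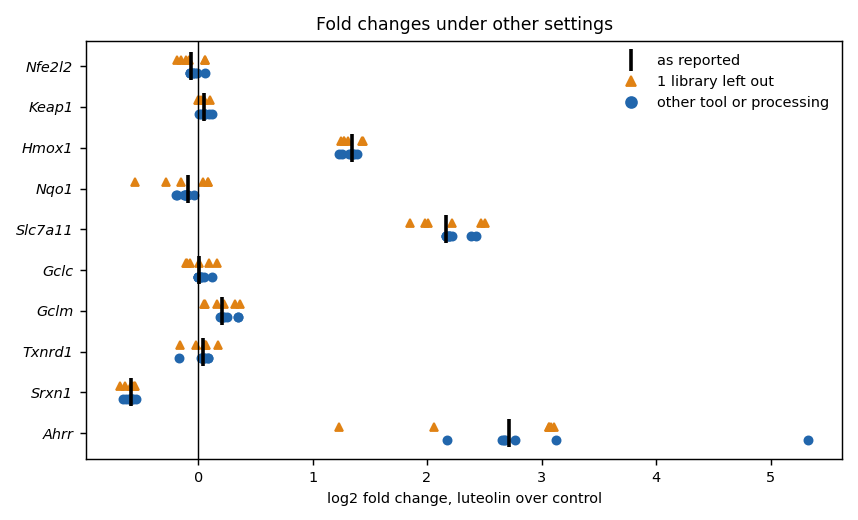
Log2 fold change of each of the 10 genes (horizontal axis) as reported, with 1 library left out, and with another tool, normalization, filter or offset. Hmox1, Slc7a11 and Srxn1 keep their direction in all settings, while Ahrr spreads from 1.23 to 5.33 and Nfe2l2, Keap1, Nqo1, Gclc and Txnrd1 cross 0.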

How the data were processed

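RNA-seq libraries of control and 200 mg/kg luteolin tumours (3 each) were analysed. All 6 columns of the deposited table were used. The authors deposited whole-number estimated counts for each gene symbol in each library, unscaled. The submitters' processing notes name bcl2fastq 2.0, HISAT2, StringTie and DESeq2 and the builds rn6 and mm39. The annotation and the counting settings were not given in the sources used here. Among low values (1 to 40), 44.8% could be divided by 4, so 1 unit need not be 1 read pair.

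Groups were compared in R 4.3.3 with edgeR 4.0.16 (TMM, filterByExpr, quasi-likelihood test, no covariates) over all 14963 genes tested, with two-sided p values adjusted by the Benjamini-Hochberg method over all of them. Intervals are 95% intervals of that fit. CPM are counts over the TMM-normalized total, and log2 ratios had a prior count of 2. The members and the gene lists were chosen with earlier results of these data known. Named are all members, in each pathway list up to 4 genes with the smallest p past the study's threshold and the 3 most abundant, in each cell list the 3 most abundant, and for each member past the threshold the 3 genes of closest pattern. Other genes were named with their values known.

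As alternatives the fit was repeated with DESeq2 1.42.0, limma 3.58.1 (voom with sample quality weights), RLE and upper-quartile normalization, no filter, at least 10 counts in every library, values divided by 4, a replicate block, each library left out in turn, and, added after the data had been seen, an offset for GC content and length (splines of 4 and 3 degrees of freedom, over 14635 genes). The pipeline was tested on simulated counts. Promoter windows (RefSeq, GRCm38.p6) and exon lengths (GENCODE M21, matched to 21053 symbols) come from another build than the mm39 of the notes, so no positions were assigned to the deposited values.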

Additional observations from a re-analysis of the deposited data

How the results depend on the processing

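The count of up-regulated genes among the 10 stayed at 2 in all alternatives except DESeq2 and voom, where Ahrr made it 3, and 0 genes were down-regulated in any. The number at an adjusted p under 0.05 was 1 as reported, 3 in DESeq2, 4 in voom, 3 with the offset for GC content and length and 0 to 2 with 1 library left out. With 1 library left out, the up-regulated count was 3 to 6 of the other NRF2 targets and 3 to 8 of the AhR list. In these settings 7.52% to 13.6% of all genes were up-regulated. Genes near 0 changed sign, and the cause was not tested. Nfe2l2 was at 0.0579 and Txnrd1 at -0.16 in voom, and Gclc at -0.0013 in DESeq2, -0.0011 with RLE normalization and -0.0049 without a filter. With 1 library left out the log2 fold changes ranged from -0.18 to 0.0625 for Nfe2l2, -0.0030 to 0.11 for Keap1, -0.55 to 0.0868 for Nqo1, -0.11 to 0.17 for Gclc and -0.16 to 0.18 for Txnrd1, and the log2 ratio of Keap1 to Nfe2l2 from -0.0426 to 0.26. The spread between 3 libraries limits what could be seen for Nqo1 and Ahrr.

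The labels do not say whether the replicate numbers pair the libraries, and the main fit treated the libraries as unpaired. Deviations from the group means correlated across genes at -0.20, -0.09 and 0.06 for libraries numbered 1, 2 and 3. For libraries of unlike number the correlations ran from -0.12 to 0.20. With 3 libraries per group, these values cannot settle whether the libraries are paired. With the replicate number as a block, 0 of the 10 genes had an adjusted p under 0.05, Hmox1 included (adjusted p = 0.0737 in edgeR's test, 1.96e-07 to 0.207 over all its alternatives), Gclc was at -0.0036, and the whole table had 34 genes higher and 1 lower at an adjusted p under 0.05, against 200 and 28.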

Other observations

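For the 2 up-regulated genes, the closest patterns over the 6 libraries were sought among 13013 tested genes outside the lists with a mean of at least 1 CPM, by the root mean square difference of centred log2 CPM. Closest to Hmox1 were Ptger2, a prostaglandin E2 receptor (difference 0.09, log2 fold change 1.48), Basp1 (0.10, log2 fold change 1.30) and Ecscr, an endothelial surface protein (0.12, log2 fold change 1.21). Closest to Slc7a11 were Tgtp2 and Tgtp1 (0.18 and 0.22, log2 fold changes 1.88 and 2.06), interferon-induced GTPases so alike that the counting could have split their reads, and the arginase gene Arg2 (0.27, log2 fold change 1.95). These are likenesses over 6 libraries and carry no test.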
